A study of Mus musculus with 6 samples.

Results

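The fast skeletal muscle genes examined here were 10 genes of the fast-contracting muscle fibre, namely Acta1, Ckm, Pvalb, Myh1, Myh2, Myh4, Mylpf, Tnnt3, Tnni2 and Atp2a1. They were found by their gene name among the 34709 genes of the RNA-seq table, and all 10 were present. The genes had been chosen by their levels in these same libraries, so those levels are given as a description, and fitted values for them are read only as part of the fit over all genes. The libraries came from articular cartilage of 18-month-old knockout (KO) and wildtype mice, which were male littermates per the study's methods, and 3 libraries were labelled for each genotype. The labels gave neither animal numbers nor any agent, and no treatment was named for these mice.

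Skeletal muscle fibres contract when actin-based thin filaments slide along myosin-based thick filaments. Fast fibres carry their own versions of most parts of this machinery, including fast myosin heavy and light chains, fast troponins, a fast calcium pump and, in rodents, abundant parvalbumin. Chondrocytes, the cells of cartilage, do not build sarcomeres, while the joint is moved by muscles whose tendons insert close to the cartilage.

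Libraries KO 2 and KO 3 differed from each other far less than any other pair did (noise ratio 5.77, against 23.7 to 85.4 for the other pairs). They were therefore counted as 1 sample, which left 2 KO and 3 wildtype samples, and p-values measure only the spread between these samples. Total counts were 52268311 to 63331135 per library. The chondrocyte genes Acan and Col2a1 were present in every library, at 13.2 to 22.8 FPKM and 12.4 to 21.3 FPKM. FPKM, fragments per kilobase, is a level set relative to transcript length and library total. Of 15 chondrocyte genes, 12 averaged 0.5 FPKM or more, while Matn1 and Matn3 were listed at 0 in some libraries. Genes of marrow blood cells were also abundant, and 14 of them took 20.0% to 32.1% of all FPKM. In such bulk tissue, fewer cells of a type and less RNA per cell cannot be told apart.

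The upstream sequences of a few members are shown because 8 of the 10 members shared one order of levels across the libraries, while Myh1 and Myh2 did not. In the deposited table (GRCm38), Ckm, Atp2a1, Mylpf, Tnni2 and Tnnt3 lie on chromosome 7, Acta1 on chromosome 8, the myosin heavy chain genes on chromosome 11 and Pvalb on chromosome 15. Each line gives the 250 bases before the RefSeq start of the gene (GRCm38.p6), written 5′ to 3′ in the direction of transcription, and capitals mark every E-box, CANNTG, the core sequence bound by myogenic factors of the MyoD family.
Ckm (chr7:19410844-19411093, plus strand): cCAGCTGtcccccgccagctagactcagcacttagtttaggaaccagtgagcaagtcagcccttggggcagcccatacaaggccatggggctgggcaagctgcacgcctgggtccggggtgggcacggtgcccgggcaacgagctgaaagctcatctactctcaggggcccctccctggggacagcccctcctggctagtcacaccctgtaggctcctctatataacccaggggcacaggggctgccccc
Acta1 (chr8:123894776-123895025, minus strand): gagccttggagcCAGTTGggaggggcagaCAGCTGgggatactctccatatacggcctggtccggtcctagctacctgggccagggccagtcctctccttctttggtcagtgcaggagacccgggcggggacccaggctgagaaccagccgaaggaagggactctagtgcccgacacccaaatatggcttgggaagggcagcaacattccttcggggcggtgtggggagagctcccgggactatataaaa
Mylpf (chr7:127211358-127211607, plus strand): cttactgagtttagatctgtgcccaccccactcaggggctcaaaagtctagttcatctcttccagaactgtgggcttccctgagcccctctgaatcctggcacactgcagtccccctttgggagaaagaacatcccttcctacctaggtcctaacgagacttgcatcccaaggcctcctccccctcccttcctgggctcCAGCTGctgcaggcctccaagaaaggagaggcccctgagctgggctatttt
Myh4 (chr11:67237562-67237811, plus strand): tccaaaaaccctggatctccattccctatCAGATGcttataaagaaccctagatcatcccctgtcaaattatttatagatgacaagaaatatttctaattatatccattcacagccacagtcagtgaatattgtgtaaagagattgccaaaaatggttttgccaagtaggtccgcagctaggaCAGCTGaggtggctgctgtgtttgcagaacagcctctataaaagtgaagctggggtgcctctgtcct
Myh1 (chr11:67199852-67200101, plus strand): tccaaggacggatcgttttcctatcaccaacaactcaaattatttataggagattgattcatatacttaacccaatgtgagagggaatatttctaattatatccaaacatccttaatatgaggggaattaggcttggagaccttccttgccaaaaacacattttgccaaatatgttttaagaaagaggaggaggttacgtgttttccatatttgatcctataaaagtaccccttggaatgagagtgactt
The RefSeq table held 9 upstream sequences for 8 members, with a pair of starts for Pvalb, and it was searched on both strands. An E-box was found in 6 of the 9, and in 66.2% of all 32851 promoters of the same length. The E-box CAGCTG, which is contained in CANNTG, was found upstream of Ckm, Acta1, Mylpf, Myh4 and Atp2a1, that is in 5 of 9 against 13.0% of all promoters. Myh1, Myh2 and the Pvalb sequence at 78206401 to 78206650 had no E-box in this window, although Pvalb did share the order of levels. Any link of these sequences to the levels was not tested. The E-box CACCTG was in 0 of 9 against 17.2% of all promoters. A CArG box, the serum response factor motif, was in 2 of 9 (Acta1 and Myh4) against 1.47%. TATAAA was in 3 of 9 (Acta1, Myh1 and Myh4) against 12.4%. The muscle M-CAT motif, CATTCCT, was in 1 of 9 (Acta1) against 4.51%. The MEF2 motif, searched in a strict form only, was in 0 of 9 against 0.508%. Looser forms of the MEF2 motif were not searched, so a MEF2 site in these windows is not excluded. These matches are a description of letters in a window, and nothing about binding was measured.

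All 10 members together took 0.0837% of the counts in wildtype 3 (47343 counts), 0.0433% in KO 1 (22642), 0.0161% in wildtype 2 (8465) and 0.00903% in wildtype 1 (5220). In KO 2 and KO 3 they took 0.000916% (579 counts) and 0.000793% (502 counts). The libraries thus fell into one order, with wildtype 3 highest, KO 1 next, wildtype 2 and wildtype 1 between, and KO 2 and KO 3 lowest. The highest and the next library carried different genotypes.

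**Figure D1:**
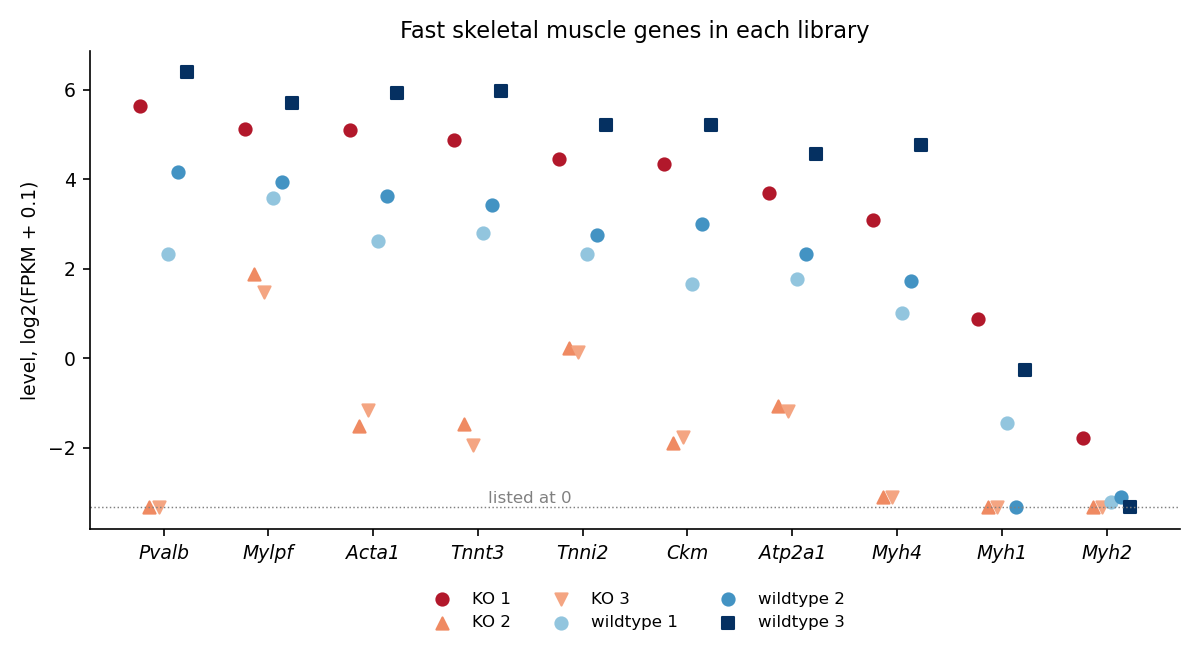
Level of each fast skeletal muscle gene in each library, as log2(FPKM + 0.1), with KO libraries in red shades and wildtype libraries in blue shades, and the dotted line marking genes listed at 0. Wildtype 3 lay highest and KO 1 next in the 8 genes from Pvalb to Myh4, whereas KO 1 lay highest in Myh1 and Myh2.

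Among the calcium-handling members, Pvalb, which encodes parvalbumin, a calcium buffer that speeds relaxation of fast fibres, stood at 83.3 FPKM in wildtype 3, 49.8 in KO 1, 17.8 in wildtype 2 and 4.95 in wildtype 1, and was listed at 0 in KO 2 and KO 3. With a listed 0 set to a floor of 3 counts, Pvalb was at least 2050-fold higher in wildtype 3 than in KO 2. Against KO 3 it was at least 2060-fold higher. That floor treats a count as a read, which a deposited count need not be, so these bounds are approximate. The genotypes overlapped, because KO 1 lay between the wildtype libraries while KO 2 and KO 3 lay below them. Atp2a1, the fast-fibre calcium pump of the sarcoplasmic reticulum, stood at 23.3 FPKM in wildtype 3, 12.9 in KO 1, 4.95 in wildtype 2 and 3.29 in wildtype 1, with 0.375 in KO 2 and 0.344 in KO 3. It kept the library order of Pvalb over a narrower span, 65.0-fold from the mean of KO 2 and KO 3 to wildtype 3.

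The energy supply of fast fibres was represented by Ckm, muscle creatine kinase, which regenerates ATP from phosphocreatine. Ckm was measured at 36.6 FPKM in wildtype 3, 20.2 in KO 1, 7.85 in wildtype 2 and 3.07 in wildtype 1, and at 0.169 and 0.196 in KO 2 and KO 3. Wildtype 3 was 200-fold above the mean of KO 2 and KO 3, and 11.9-fold above wildtype 1 of its own genotype.

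Thin filament members followed the same order. Acta1, skeletal muscle actin, was at 60.7 FPKM in wildtype 3, 34.4 in KO 1, 12.3 in wildtype 2, 6.004 in wildtype 1, 0.251 in KO 2 and 0.348 in KO 3. Tnnt3, fast troponin T, which anchors troponin to tropomyosin, was at 62.8 FPKM in wildtype 3, 29.3 in KO 1, 10.6 in wildtype 2, 6.84 in wildtype 1, 0.261 in KO 2 and 0.160 in KO 3. Tnni2, fast troponin I, the inhibitory subunit, was at 37.0 FPKM in wildtype 3, 21.6 in KO 1, 6.65 in wildtype 2, 4.94 in wildtype 1, 1.08 in KO 2 and 1.01 in KO 3. Acta1 and Tnnt3 were nearly absent from KO 2 and KO 3, at 203-fold and 298-fold under wildtype 3, while Tnni2 kept about 1 FPKM there, 35.4-fold under wildtype 3. Tnnt3 overlaps Prr33, a gene on the opposite strand that stood at 6.57 to 8.81 FPKM in all 6 libraries, and whether the counting used strand was not given in the sources used here. Tnnt3 was far below the level of Prr33 in KO 2 and KO 3.

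Among the members detected in every library, the thick filament held both the narrowest and the widest span by fold. Mylpf, the fast regulatory light chain of myosin, was at 51.98 FPKM in wildtype 3, 34.8 in KO 1, 15.3 in wildtype 2, 11.9 in wildtype 1, 3.57 in KO 2 and 2.71 in KO 3, a span of 16.5-fold between wildtype 3 and the mean of the lowest libraries. Mylpf was the member best kept in KO 2 and KO 3, where it was the highest of all 10. Myh4, the heavy chain of the fastest (IIB) fibres, was at 27.01 FPKM in wildtype 3, 8.36 in KO 1, 3.22 in wildtype 2, 1.93 in wildtype 1, 0.0168 in KO 2 and 0.0164 in KO 3. The corresponding span was 1630-fold, and it rested on 8 counts in KO 2 and 7 in KO 3.

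Myh1 and Myh2, the heavy chains of IIX and IIA fibres, were scarce and did not share this order. Myh1 was at 1.74 FPKM in KO 1, 0.729 in wildtype 3 and 0.267 in wildtype 1, and was listed at 0 in wildtype 2, KO 2 and KO 3. Myh2 was at 0.193 FPKM in KO 1, 0.0168 in wildtype 2 and 0.00864 in wildtype 1, and was listed at 0 in wildtype 3, KO 2 and KO 3. Both were therefore highest in KO 1, although wildtype 3 held more of every other member. With the 3-count floor, Myh2 was at least 29.2-fold higher in KO 1 than in wildtype 3, and Myh1 at least 217-fold higher in KO 1 than in wildtype 2. These bounds too are approximate, because a deposited count need not be a single read.

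The myosin heavy chain genes were then compared within each library, since a share within a library does not depend on how much muscle RNA it held. Myh2 (67171027 to 67197517), Myh1 (67200052 to 67224575) and Myh4 (67238029 to 67260446) lie next to each other on the plus strand of chromosome 11. Myh1 overlaps Myhas on the opposite strand, which was at 0 to 0.16 FPKM. Of the 10621 counts of these 3 genes in wildtype 3, 97.2% (95% Wilson interval 96.9 to 97.5) were from Myh4, 2.78% (2.48 to 3.11) from Myh1 and 0 from Myh2, which allows a share of up to 0.0282%. Of 3670 counts in KO 1, 80.2% (78.9 to 81.4) were from Myh4, 17.6% (16.4 to 18.9) from Myh1 and 2.21% (1.78 to 2.73) from Myh2. The 2 libraries richest in fast muscle genes thus had different myosin make-ups beyond counting error. Wildtype 1 lay nearer to KO 1, with 86.7% Myh4 (84.3 to 88.8) and 12.7% Myh1 (10.7 to 15.1) of 882 counts. Wildtype 2 had 99.3% Myh4 (98.7 to 99.7), 0.679% Myh2 (0.344 to 1.33) and 0 Myh1 of 1179 counts, which allows a share of up to 0.254%. The make-up therefore differed among libraries of one genotype as well. KO 2 and KO 3 had 8 and 7 counts, all from Myh4, too few to compare. These intervals cover counting error only, compare libraries and not genotypes, and a deposited count need not be a single read. In the transcripts of the annotation, 2.37% of the 150-base stretches of Myh1, 1.75% of those of Myh2 and 0.511% of those of Myh4 were also present in another myosin heavy chain gene, and 0 stretches of the other 7 members were shared with any gene.

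**Figure D2:**
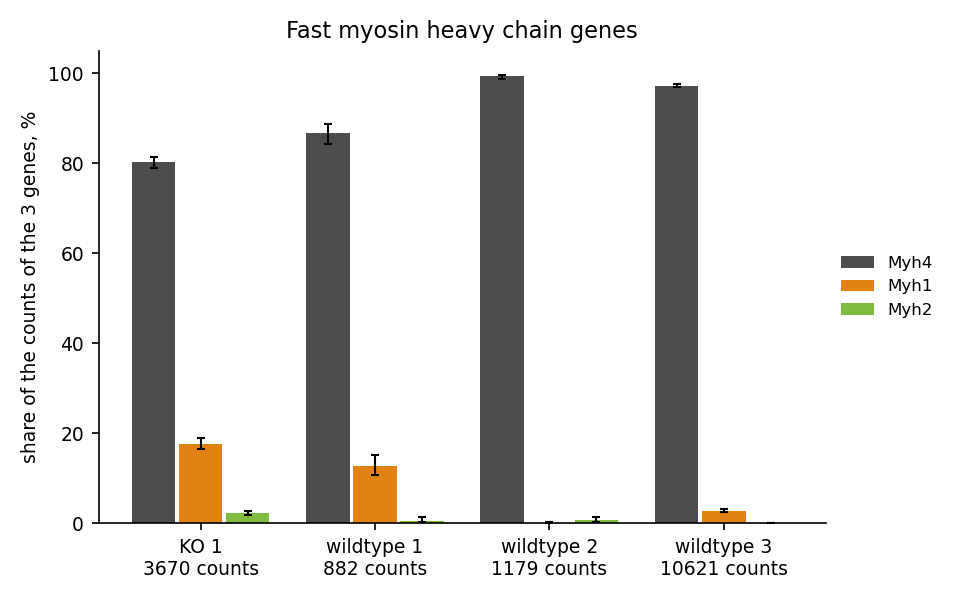
Share of the counts of Myh4, Myh1 and Myh2 in the 4 libraries with more than a handful of such counts, in percent of their sum, with 95% Wilson intervals as error bars. Myh1 took 17.6% in KO 1 and 12.7% in wildtype 1, against 2.78% in wildtype 3 and 0 in wildtype 2.

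KO and wildtype were next compared across all genes. Of the 10 members, 8 reached the mean of 0.5 FPKM over the libraries that was required for testing, and Myh1 (mean 0.456 FPKM) and Myh2 (0.0364 FPKM) did not. With the quasi-likelihood test of edgeR and p-values adjusted after Benjamini and Hochberg, 0 of the 8 members were called at an adjusted p under 0.05, and 0% of the 15373 tested genes were. At an unadjusted p under 0.05, 0 of the 8 members were found, against 13.7% of all tested genes. With the 6 libraries as labelled, 0 of the 8 were called, against 3.71% of all tested genes, and DESeq2 on the 5 samples called 0 of the 8, against 6.07% of all genes with an adjusted p. Since the members were chosen by their levels in these libraries, nothing is read from these counts.

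The fitted difference of each member was smaller than its error. The log2 difference, KO minus wildtype, was -0.53 for Acta1 (SE 1.51), -0.56 for Ckm (SE 1.53), -0.43 for Pvalb (SE 1.79) and -1.28 for Myh4 (SE 1.76). It was -0.41 for Mylpf (SE 0.978), -0.78 for Tnnt3 (SE 1.54), -0.44 for Tnni2 (SE 1.23) and -0.60 for Atp2a1 (SE 1.302). The estimate lay under 0 in 8 of the 8 members, as in 52.5% of all tested genes, with a median of -0.55 against -0.02 over all tested genes. As an example of the spread, the mean level of Acta1 was 26.3 ± 30.0 FPKM in wildtype (SD, n = 3) and 17.3 ± 24.1 FPKM in KO (SD, n = 2). The groups overlapped in all 10 members, so that 0 of 10 had groups apart, whereas this was so for 28.6% of all tested genes.

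These directions hung on single libraries. Without wildtype 3, all 8 estimates turned positive, from 0.54 to 1.18, with a median of 0.88. Without KO 2 and KO 3 together, 7 of the 8 were positive and Myh4 was at -0.28, with a median of 0.45. Without KO 1, all 8 were negative with a median of -6.45, the same with Pvalb set to its bound of -9.77, and 0 of the 8 were called, against 2.29% of all tested genes. In that last fit KO was a single sample, which was assumed to vary as the wildtype samples did.

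**Figure D3:**
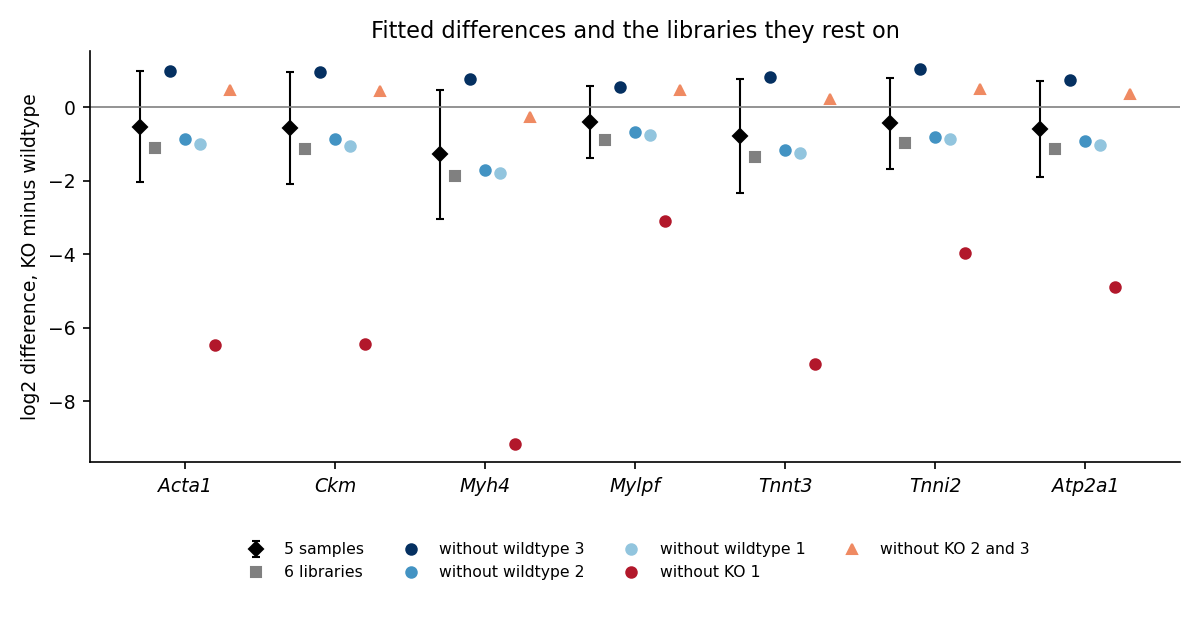
Fitted log2 difference, KO minus wildtype, of 7 members, with the standard error for the fit of 5 samples (black) and the estimates of other fits, in which libraries were left out or all 6 were used as labelled. Pvalb, listed at 0 in KO 2 and KO 3, is not drawn. Without wildtype 3 every drawn estimate lay above 0, and without KO 1 every one lay at -3.09 or lower.

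The agreement among the members was examined across libraries. The full order of wildtype 3 over KO 1, wildtype 2, wildtype 1 and the pair of KO 2 and KO 3 was met by 8 of the 8 tested members and by 0.507% of all tested genes. Wildtype 3 as the highest and KO 2 and KO 3 as the lowest libraries was met by 4.88% of all tested genes. The members were chosen by these levels, so their share is a description. On the log2(FPKM + 0.1) scale, the range over the 6 libraries had a median of 7.26 among the 8 tested members and of 0.66 among all tested genes. Among the members it ran from 1.55 in Myh2 to 9.70 in Pvalb.

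The members did not shift by one common factor. The ratio of KO 1 to wildtype 3 was 0.310 for Myh4, 0.467 for Tnnt3, 0.552 for Ckm, 0.553 for Atp2a1, 0.566 for Acta1, 0.585 for Tnni2, 0.598 for Pvalb, 0.670 for Mylpf and 2.38 for Myh1. Most ratios were thus close together, with Myh4 under and Myh1 far over the others. Between wildtype 3 and wildtype 1 the ratio ran from 2.73 in Myh1 and 4.38 in Mylpf to 14.0 in Myh4 and 16.8 in Pvalb.

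**Figure D4:**
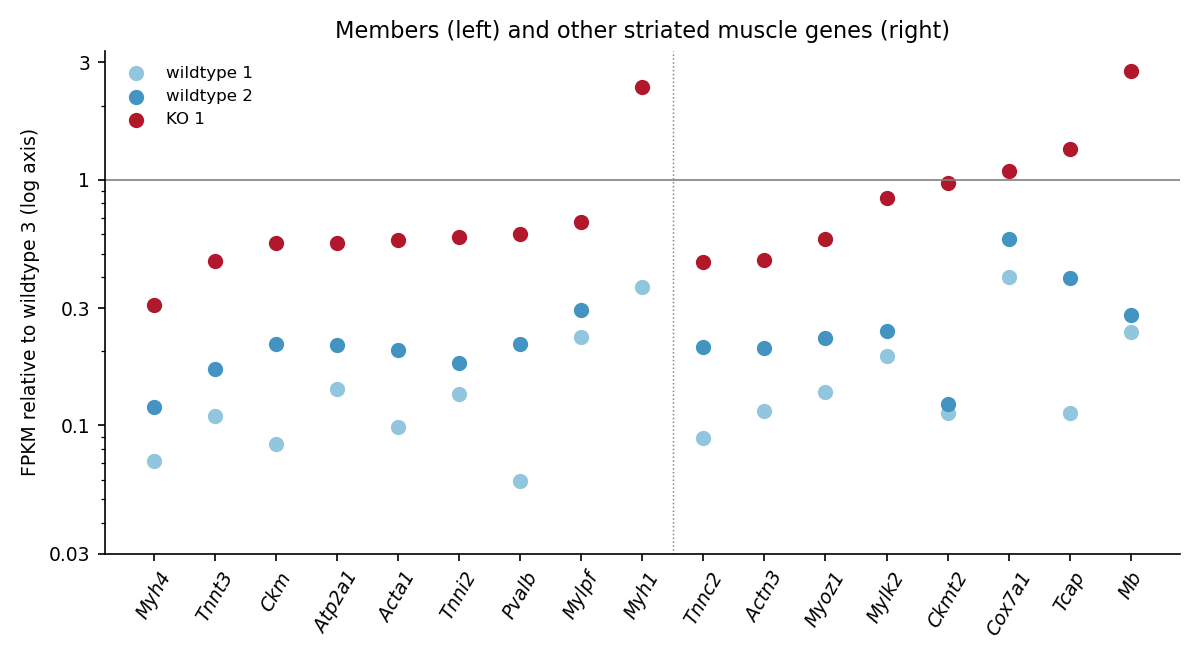
FPKM of KO 1, wildtype 2 and wildtype 1 relative to wildtype 3 (log axis), for the 9 members with a value in wildtype 3 on the left and 8 other striated muscle genes on the right, of which some were chosen after their values were seen. KO 1 lay under 1 for the members apart from Myh1, at 2.38, and over 1 for Cox7a1 (1.08), Tcap (1.33) and Mb (2.76), and genes listed at 0 have no point.

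Among all tested genes that were no members, those with profiles nearest to the mean of the 10 members over the 6 libraries were mostly genes of the same machinery. By the root mean square difference of log2(FPKM + 0.1) values, each gene centred on its own mean, they were Actn3 (0.27), Myoz1 (0.37), Ckmt2 (0.52), Mylf-ps (0.53), Mylk2 (0.59), Casq1 (0.61), Mybpc2 (0.64), Myot (0.66), Mb (0.68) and Eef1a2 (0.70), where the median over all tested genes was 2.30. Actn3 is the fast-fibre alpha-actinin of the Z-disc, Casq1 the calsequestrin of fast fibres, Mylk2 the skeletal myosin light chain kinase and Ckmt2 the mitochondrial creatine kinase of sarcomeres. Actn3 was at 17.6 FPKM in wildtype 3, 8.29 in KO 1, 3.63 in wildtype 2, 2.01 in wildtype 1, 0.0986 in KO 2 and 0.144 in KO 3, which is the order of the members. With a pseudocount of 1 in place of 0.1, 6 of these 10 were again among the nearest 10. KO 2 and KO 3 are not independent libraries, so this likeness describes 5 samples.

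The other genes of the fast fibre, 18 partners of the members in filament, calcium release and glycogen use, were then counted. Of these, 14 were tested, 0 were called in either direction, 13 had estimates under 0 and the median log2 difference was -0.73. As with the members, this direction turned with the libraries used, to a median of 0.41 without wildtype 3 and 0.14 without KO 2 and KO 3, and it was -4.57 without KO 1. With the 6 libraries as labelled, 1 of the 14 was called, Gpd1, at a log2 difference of -2.01 (adjusted p = 0.0433 by edgeR). Gpd1, glycerol-3-phosphate dehydrogenase, is also a gene of fat cells, and it was at 6.79 FPKM in wildtype 1, 6.51 in wildtype 3, 2.87 in wildtype 2, 1.897 in KO 1, 1.09 in KO 2 and 0.942 in KO 3, so that its highest library was not that of the members. Tnnc2, the calcium-binding fast troponin C, was at 79.8 FPKM in wildtype 3, 36.8 in KO 1, 16.6 in wildtype 2, 7.12 in wildtype 1, 0.0229 in KO 2 and 0.149 in KO 3, so the third subunit of fast troponin had the order of Tnnt3 and Tnni2. Wildtype 3 was highest and KO 2 and KO 3 lowest in 12 of the 14. Eno3, muscle enolase, ran from 4.79 to 26.2 FPKM and Pfkm, muscle phosphofructokinase, from 6.81 to 17.8 FPKM, and neither was near 0 in any library. Tpm1, a tropomyosin also made outside striated muscle, ran from 24.8 to 54.2 FPKM.

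Genes of the sarcomere and triad that all striated fibres share numbered 27, of which 13 were tested and 0 were called, with 9 estimates under 0 and a median of -0.22, which was 0.57 without wildtype 3, 0.55 without KO 2 and KO 3, and -2.32 without KO 1. Wildtype 3 was highest and KO 2 and KO 3 lowest in 9 of the 13. Mb, myoglobin, the oxygen store of oxidative fibres, was at 14.5 FPKM in KO 1, 5.27 in wildtype 3, 1.49 in wildtype 2, 1.27 in wildtype 1, 0.141 in KO 2 and 0 in KO 3. Mb thus shared the low libraries of the members, but KO 1 was 2.76-fold over wildtype 3, as with Myh1. Tcap, the titin cap of the Z-disc, was at 12.6 FPKM in KO 1 and 9.51 in wildtype 3, and Cox7a1, a muscle subunit of cytochrome c oxidase, at 2.94 and 2.73. In this list KO 1 exceeded wildtype 3 in 3 of the 13 tested genes, and in 0 of the 14 tested fast partners. Tpm2, a tropomyosin, ran from 9.58 to 20.6 FPKM and Myom1, a myomesin, from 2.87 to 5.04 FPKM.

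Slow-fibre genes did not share the order of the members. Of 12 listed, 4 were tested, 0 were called, 3 had estimates over 0 and the median was 0.07, and 0 of the 4 had wildtype 3 highest with KO 2 and KO 3 lowest. Their sum was 22.9 to 33.8 FPKM, highest in KO 2, where the members summed to 5.73 FPKM. Atp2a2, the calcium pump of slow and cardiac muscle that many other cells also use, made up most of it with 17.9 to 27.6 FPKM. Tnnt1, slow troponin T, ran from 2.61 to 4.76 FPKM, Myl2, the slow regulatory light chain, from 0.266 to 1.36 FPKM, and Tnnc1, slow troponin C, from 0.283 to 0.918 FPKM. The defining slow heavy chain, Myh7, was at 0.55 FPKM in wildtype 1 and at 0 to 0.0149 FPKM in the other libraries. Mybpc1, a myosin-binding protein of slow fibres, was at 1.08 FPKM in KO 1 and at 0.0341 to 0.305 in the others.

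Immature muscle was represented weakly. Of 4 embryonic and perinatal fibre genes in the table, 2 were tested and 0 called, with a median of -1.63. Actc1, cardiac actin, which developing muscle uses, was at 2.04 FPKM in wildtype 1, 0.776 in wildtype 3, 0.473 in KO 1 and 0 in the others, and Myl4 ran from 0.579 to 2.90 FPKM. The cardiac genes also had their highest sum in wildtype 1, and whether Actc1 there came from developing muscle was not tested. Myh3 and Myh8, the embryonic and perinatal heavy chains, did not exceed 0.0234 FPKM in any library. Among genes of myogenic factors and satellite cells, 0 were called. Cdh15, M-cadherin of satellite cells, ran from 0.993 to 3.91 FPKM, highest in wildtype 1, and its estimate was -1.03 on the log2 scale (SE 0.312). Myf6, a myogenic factor of mature fibres, was at 0.653 FPKM in wildtype 3, 0.147 in KO 1, 0.0307 in wildtype 1 and 0 in the others. Myod1 was at 0.171 FPKM in KO 1, 0.055 in wildtype 3 and 0 in the others. Pax7, Myf5, Myog, Chrng and Nppb were not analysed here.

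Genes of other tissues around a joint were set beside the members, whose summed levels were 383 FPKM in wildtype 3, 213 in KO 1, 78.7 in wildtype 2, 43.2 in wildtype 1, 5.73 in KO 2 and 4.78 in KO 3. The sum of smooth muscle genes was high in wildtype 3 alone, at 78.5 FPKM against 13.1 to 16.0 FPKM in the other libraries. Of the 5 tested genes, 4 were highest in that library. The exception was Smtn, at 8.67 FPKM in wildtype 3 and highest in KO 2, at 9.48 FPKM. Acta2, smooth muscle actin, was at 31.5 FPKM in wildtype 3 and 3.69 to 4.64 FPKM elsewhere, and Tagln, transgelin, at 28.2 and 0.92 to 2.12 FPKM. Adipocyte genes summed to 210 FPKM in wildtype 1, 136 in wildtype 3, 74.4 in wildtype 2, 53.4 in KO 1, 20.7 in KO 2 and 20.5 in KO 3. They thus shared the lowest libraries with the members in 5 of 5 tested genes, but their highest library was wildtype 1. Plin1, perilipin of the lipid droplet, was at 3.19 FPKM in wildtype 1, 1.26 in wildtype 3, 0.306 in wildtype 2, 0.129 in KO 1, 0.00872 in KO 2 and 0.0115 in KO 3. For adipocyte genes the median log2 difference was -3.24 (-6.21 without KO 1), and 0 of 5 were called, while 5 of 5 had an unadjusted p under 0.05 and groups that did not overlap, beside the 13.7% and 28.6% of all tested genes given for the members. For smooth muscle genes it was -2.50 (-0.49 without wildtype 3), and 0 of 5 were called. Both lists were chosen with earlier results of these data known, so these shares are a description.

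Part of the marrow list shared the highest and lowest libraries of the members. Its sum was 136390 FPKM in wildtype 3, 123976 in wildtype 2, 119892 in KO 1, 96366 in wildtype 1, 73765 in KO 3 and 72862 in KO 2. Wildtype 3 was highest and KO 2 and KO 3 lowest in 4 of its 14 genes, all of them globins of red blood cells, against 4.88% of all tested genes. The marrow list was chosen with earlier results of these data known, so its share is a description. Hbb-bs, a beta globin, was at 45387 FPKM in wildtype 3, 34461 in wildtype 2, 27612 in wildtype 1, 25197 in KO 1, 9667 in KO 2 and 9546 in KO 3. Hbb-bt, Hba-a1 and Hba-a2 also had KO 1 below both wildtype 1 and wildtype 2, so that 0 of the 14 marrow genes had the full order of the members. The neutrophil genes S100a8 and S100a9 were highest in KO 1 and lowest in wildtype 1.

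No tested gene of the tendon, chondrocyte, osteoblast, nerve and cardiac lists had wildtype 3 highest. Tendon and ligament genes summed to 899 FPKM in wildtype 1 and to 232 FPKM in wildtype 3 and 255 FPKM in KO 1, a sum made up mostly of Col1a1 and Col1a2, which are also bone collagens. Of its other tested genes, Thbs4 was highest in KO 1, at 43.4 FPKM against 10.9 to 20.2 FPKM, and Fmod ran from 5.41 to 21.8 FPKM with 19.5 in KO 1. Chondrocyte genes summed to 1475 FPKM in KO 1 and to 663 to 878 FPKM in the others. Osteoblast genes summed to 1110 to 2866 FPKM, peripheral nerve genes to 3.66 to 12.2 FPKM and cardiac genes to 0.309 to 2.52 FPKM. The cardiac sum was highest in wildtype 1 and next in KO 1, at 1.57 FPKM. Myh6, Tnnt2, Nppa and Myl7 were highest in wildtype 1, at 0.26 to 0.725 FPKM, as were Actc1 and Myh7. Tnni3, the only tested cardiac gene, was highest in KO 2, and Ryr2 in wildtype 3. Of all tested genes in these lists and in the marrow list, 0 were called. Median log2 differences were -0.33 for tendon and ligament, 0.06 for chondrocyte, -0.52 for osteoblast, 0.10 for nerve, 0.65 for the single tested cardiac gene and -0.16 for marrow genes. The marrow median lay between 7 genes with estimates under 0 and 7 with estimates over 0. Of the 14 marrow genes, 7 had an unadjusted p under 0.05 by edgeR, against 13.7% of all tested genes. Groups did not overlap in 13 of the 14, against 28.6% of all tested genes. Because the marrow genes were chosen with earlier results of these data known, nothing is read from these shares. The part of any of these tissues in the levels of the members was not tested.

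**Figure D5:**
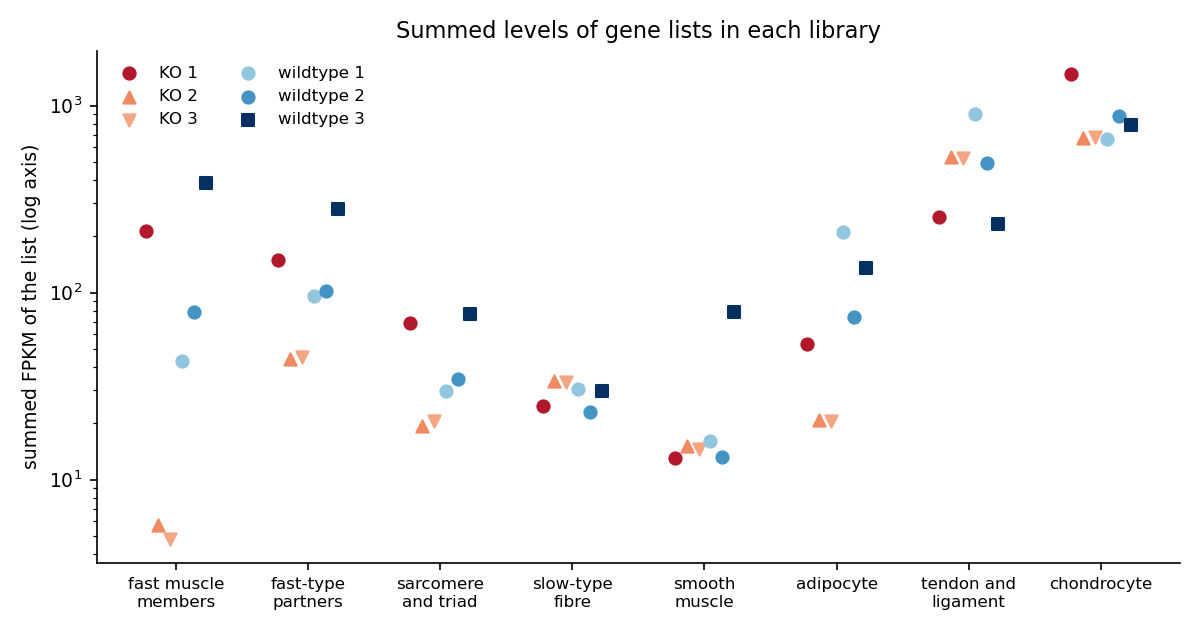
Summed FPKM of gene lists in each library (log axis), with KO libraries in red shades and wildtype libraries in blue shades. The fast muscle members ran from 4.78 to 383 FPKM, the slow-type fibre genes from 22.9 to 33.8 FPKM, and the smooth muscle genes stood apart in wildtype 3, at 78.5 FPKM.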

How the data were processed

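Articular cartilage of 3 KO and 3 wildtype libraries was profiled by RNA-seq, with groups and replicate numbers from the sample titles. The knocked-out gene and 1 gene of the myogenic list are not reported here. The authors deposited 1 table with FPKM values, scaled by them within each library, and whole-number values that were treated as estimated counts (expected counts) because low values piled up unevenly, so that 1 count was not taken as 1 read. Estimated counts were whole as deposited, and the averaged counts of KO 2 and KO 3 were rounded to whole numbers. The submitters' processing notes name cutadapt 1.9, HISAT2 2.0.4, UMI-tools, StringTie 1.3.4d, DESeq2 and edgeR. Strand-specific paired reads carried molecular identifiers per the labels, whose use in counting was not given in the sources used here. Positions followed GRCm38, and 31627 of 34607 gene identifiers shared with GENCODE vM21 had the same coordinates. Unused per-sample columns numbered 0.

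Counts were fitted with edgeR 4.0.16 (quasi-likelihood test, TMM, R 4.3.3) on the 15373 genes that averaged 0.5 FPKM or more over the libraries, with KO 2 and KO 3 averaged as 1 sample and Benjamini-Hochberg adjustment. The fit was tested on simulated data. Log2 differences are KO minus wildtype. The floor was 3 counts, 0.0474 to 0.0574 CPM per library. The noise ratio is the median squared difference of scaled counts over its Poisson value, for genes of 200 to 50000 counts.

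The members and the 13 other gene lists were chosen with earlier results of these data known. Named genes were the members, the 10 genes nearest in profile and the 4 highest of each muscle list by mean FPKM, with genes of other tissues where their values moved with the members, and others were chosen after their values were seen. Alternatives were DESeq2 1.42.0, limma 3.58.1 on log2(FPKM + 1) and log2(FPKM + 0.1), other scalings and filters, leaving out single libraries, blocking on replicate number and, added after seeing the data, KO 2 and KO 3 left out together, counts divided by 4 and the myosin heavy chains left out.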

Additional observations from a re-analysis of the deposited data

How the results depend on the processing

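The count of called genes, 0 of 15373 by edgeR on 5 samples (2106 at an unadjusted p under 0.05), was 570 with the 6 libraries as labelled, 21 with no filter on low values, 879 by DESeq2, and 0 to 352 with single libraries left out, highest without KO 1. Without KO 2 and KO 3 together, added after seeing the data, it was 9. In the 13 other lists, 0 genes were called by edgeR (17 at an unadjusted p under 0.05), against 7 with the 6 libraries (1 fast-type partner, Gpd1, 1 adipocyte and 5 marrow genes), 1 with no filter, 13 by DESeq2 and 0 to 7 with single libraries left out. For the members the median log2 difference of -0.55 ran from -6.45 to 0.88 with single libraries left out, and was 0.45 without KO 2 and KO 3 together. It was -1.12 with the 6 libraries, -1.16 and -2.09 by limma with pseudocounts of 1 and 0.1, and -0.53 without the myosin heavy chains. With the replicate block it was -4.47, and 0 genes were called. The deviations of same-numbered libraries correlated at -0.15, -0.11 and -0.058, so no pairing by replicate number was seen. Because KO 2 and KO 3 differed so little from each other, these correlations cannot exclude a pairing. With no filter, Myh1 and Myh2 had estimates over 0, at 1.48 and 3.35. Of the 10 genes nearest in profile, 6 were shared with a pseudocount of 1. The cause of these shifts was not tested. Members at a few counts, as in KO 2 and KO 3, are limited by depth.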
